A study of Homo sapiens with 6 samples.

Results

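The genes described here encode the enzymes and transporters that carry glucose to lactate and the hypoxia-inducible factor (HIF) axis that regulates many of them. They were taken by symbol from a list of 37 glycolytic and HIF axis genes, and no measured value entered that rule, although the list was drawn up with earlier results of these data known. Of these, 35 have a row among the 19923 genes of the count tables, and the other 2 were not analysed here. Poly(A) RNA was sequenced from Kelly cells, an established human neuroblastoma line with amplified MYCN whose genotype is labelled WT. Cells received a control siRNA (siControl, 3 libraries) or an siRNA against METTL3 (siMETTL3, 3 libraries), by lipid transfection, and were collected after 72 hours. Both groups were thus transfected, and no untransfected cells or second siRNA are labelled. Nothing in the labels says that the libraries came from separate cultures, so p-values measure the spread between these libraries, which may be technical.

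METTL3 is the catalytic subunit of the enzyme complex that writes N6-methyladenosine, a modification of adenosines in mRNA. Glycolysis splits glucose into pyruvate through a chain of enzymes, several of which exist as isoenzymes encoded by different genes. Lactate dehydrogenase and the monocarboxylate transporters then convert pyruvate to lactate and move it across the cell membrane. HIF is a transcription factor made of an oxygen-regulated alpha subunit (HIF1A or EPAS1) and a stable partner (ARNT). In normal oxygen, prolyl hydroxylases of the EGLN family mark the alpha subunits for destruction, so HIF activity is set largely at the protein level, which was not measured here. When oxygen is low, HIF binds a short core sequence, ACGTG or GCGTG, near its target genes. Among these targets are many glycolytic genes, which MYC family factors also bind.

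The libraries held between 15430000 and 21565013 counts, the shallowest being siControl replicate 3, which also lay farthest from the other group on the first principal component. METTL3 itself (chromosome 14, 21498133 to 21511342) was measured at 53.5, 52.8 and 56.2 CPM (counts scaled to library size) in siControl and at 32.99, 31.8 and 34.3 CPM in siMETTL3, a ratio of 0.610. Here and below, ± is the SD over 3 libraries and a log2 change is the log2 fold change of siMETTL3 over siControl. For METTL3 it was -0.71 (SE 0.070, edgeR FDR 4.68e-06). All 13 markers of noradrenergic neuroblastoma cells that were listed had a mean of at least 1 CPM, and all 4 blood markers stayed under 1 CPM in every library. The summed noradrenergic markers, MYCN among them, lay between 7309 and 7964 CPM in siControl and between 10550 and 11130 CPM in siMETTL3. Their part in the changes described below was not tested. Of 6 fibroblast markers, 3 had a mean of at least 1 CPM. The 6 summed to between 85.3 and 99.2 CPM in siControl and between 87.2 and 93.8 CPM in siMETTL3. Most of that sum was PDGFRB, at 78.4 to 92.7 CPM in siControl and 80.3 to 86.9 CPM in siMETTL3. The 4 epithelial markers, of which 1 was at 0 in every library, summed to between 7.17 and 7.70 CPM in siControl and between 8.08 and 10.4 CPM in siMETTL3. The 3 endothelial markers summed to between 4.98 and 5.91 CPM in siControl and between 6.95 and 9.25 CPM in siMETTL3. Most of that sum was VWF, at 3.85 to 5.21 CPM in siControl and 6.66 to 8.76 CPM in siMETTL3. PECAM1 had a log2 change of -0.95 (edgeR FDR 0.143). In bulk RNA, fewer cells of a type and less RNA per cell cannot be told apart.

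To show where the HIF core sequence lies, the 250 bases before the RefSeq start site (GRCh38.p14) are given for 6 of the 7 genes with the larger rises reported below and for PFKM and GAPDH, which fell. The seventh, NDRG1, is not in the table of promoters used. Each is written 5′ to 3′ in the direction of the gene, and capitals mark every ACGTG or GCGTG on either strand. Only the first listed start site of each gene was used, and other start sites were not searched. The windows of PFKFB4, PFKM and GAPDH lie inside the counted gene span. In the direction of the gene, those spans begin at 48562015, 48105139 and 6534512. Whether the start sites used are the main ones in these cells was not tested.

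SLC2A1 (chr1:42958869-42959118, minus strand): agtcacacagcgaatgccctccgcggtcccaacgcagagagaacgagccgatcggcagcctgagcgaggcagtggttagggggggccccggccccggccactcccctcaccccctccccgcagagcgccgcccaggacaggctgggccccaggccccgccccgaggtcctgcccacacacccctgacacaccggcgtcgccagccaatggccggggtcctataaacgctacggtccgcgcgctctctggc
PFKFB4 (chr3:48556804-48557053, minus strand): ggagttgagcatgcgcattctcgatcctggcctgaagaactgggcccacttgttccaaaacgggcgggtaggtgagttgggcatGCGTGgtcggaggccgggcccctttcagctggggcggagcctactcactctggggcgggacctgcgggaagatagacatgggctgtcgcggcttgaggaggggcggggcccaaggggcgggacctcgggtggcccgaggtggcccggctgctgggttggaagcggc
PFKFB3 (chr10:6144671-6144920, plus strand): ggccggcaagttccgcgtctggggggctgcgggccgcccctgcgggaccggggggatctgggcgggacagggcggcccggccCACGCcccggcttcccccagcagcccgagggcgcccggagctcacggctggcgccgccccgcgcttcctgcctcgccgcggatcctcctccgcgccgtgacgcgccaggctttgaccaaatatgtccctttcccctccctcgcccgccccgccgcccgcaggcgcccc
ALDOC (chr17:28576896-28577145, minus strand): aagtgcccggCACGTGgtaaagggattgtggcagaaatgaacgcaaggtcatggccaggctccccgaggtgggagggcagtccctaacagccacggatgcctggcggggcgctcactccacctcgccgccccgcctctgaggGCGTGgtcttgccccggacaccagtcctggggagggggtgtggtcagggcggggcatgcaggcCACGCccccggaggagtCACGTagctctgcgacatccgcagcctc
SLC16A3 (chr17:82228185-82228434, plus strand): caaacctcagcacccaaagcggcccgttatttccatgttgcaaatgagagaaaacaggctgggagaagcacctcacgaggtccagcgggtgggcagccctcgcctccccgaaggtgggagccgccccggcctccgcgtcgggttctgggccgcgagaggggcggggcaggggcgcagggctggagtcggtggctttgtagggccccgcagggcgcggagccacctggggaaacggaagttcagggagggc
BNIP3 (chr10:131981924-131982173, minus strand): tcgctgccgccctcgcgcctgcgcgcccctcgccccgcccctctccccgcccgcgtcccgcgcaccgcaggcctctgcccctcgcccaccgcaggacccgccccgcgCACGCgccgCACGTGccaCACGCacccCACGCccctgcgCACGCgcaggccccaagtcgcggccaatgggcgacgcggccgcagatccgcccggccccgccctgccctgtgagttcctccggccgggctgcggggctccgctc
PFKM (chr12:48105623-48105872, plus strand): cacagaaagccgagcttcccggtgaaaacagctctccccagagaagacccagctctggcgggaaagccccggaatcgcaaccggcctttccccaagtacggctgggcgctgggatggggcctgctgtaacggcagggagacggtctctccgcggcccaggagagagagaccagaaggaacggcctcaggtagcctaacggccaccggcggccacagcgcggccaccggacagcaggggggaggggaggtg
GAPDH (chr12:6535014-6535263, plus strand): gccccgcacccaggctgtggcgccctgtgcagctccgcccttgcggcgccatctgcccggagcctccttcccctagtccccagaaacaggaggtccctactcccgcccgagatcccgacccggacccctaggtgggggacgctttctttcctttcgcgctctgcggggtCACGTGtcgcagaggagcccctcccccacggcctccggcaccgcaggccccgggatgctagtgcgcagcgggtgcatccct

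BNIP3 had 6 matches, ALDOC 5, GAPDH 2, and PFKFB3 and PFKFB4 1 each, while SLC2A1, SLC16A3 and PFKM had 0 in this window. The letters CACGTG, a site of MYC family factors, contain ACGTG on both strands and so count as 2 matches. They occurred in the windows of ALDOC, BNIP3 and GAPDH among those printed. ACGTG or GCGTG was found in 19 of 30 promoters of tested members (63.3%), in 55.5% of the 11813 promoters of tested genes and in 43.1% of all 27305 promoters of the table. ACGTG alone was found in 43.3% of the members' promoters and in 22.3% of those of tested genes. For GCGTG alone the order was the reverse, with 33.3% of the members' promoters and 43.9% of those of tested genes. A match is a description of the letters, not a binding site, and the members were chosen partly as genes known to respond to HIF. The share with ACGTG or GCGTG was 12 of 19 among members that rose, 2 of 4 among those that fell and 5 of 7 among the rest.

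The comparison of siMETTL3 with siControl asks how these genes behaved when METTL3 was depleted. Most of the list was higher in siMETTL3. The glucose transporter gene SLC2A1, both hexokinase genes, both PFKFB genes, the 3 tested genes of the lactate steps and several HIF targets rose, while PFKM, GAPDH, ENO1 and TPI1 fell. Of the 35 genes, 33 had enough counts to be tested. Of these, 21 were higher and 4 were lower at an adjusted p (FDR, Benjamini-Hochberg over all 15311 tested genes) under 0.05 in edgeR's quasi-likelihood test. Among all tested genes, 18.6% were higher and 19.2% were lower by the same rule, 37.8% in all. The median log2 change of the 33 was 0.34, against -0.0021 over all tested genes. The groups did not overlap for 27 of the 33, against 49.9% of all tested genes. In 23 the siMETTL3 libraries were the higher ones (24.8% of all tested genes) and in 4 the lower ones (25.1%). The plot of the changes by role shows these genes together.

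**Figure D1:**
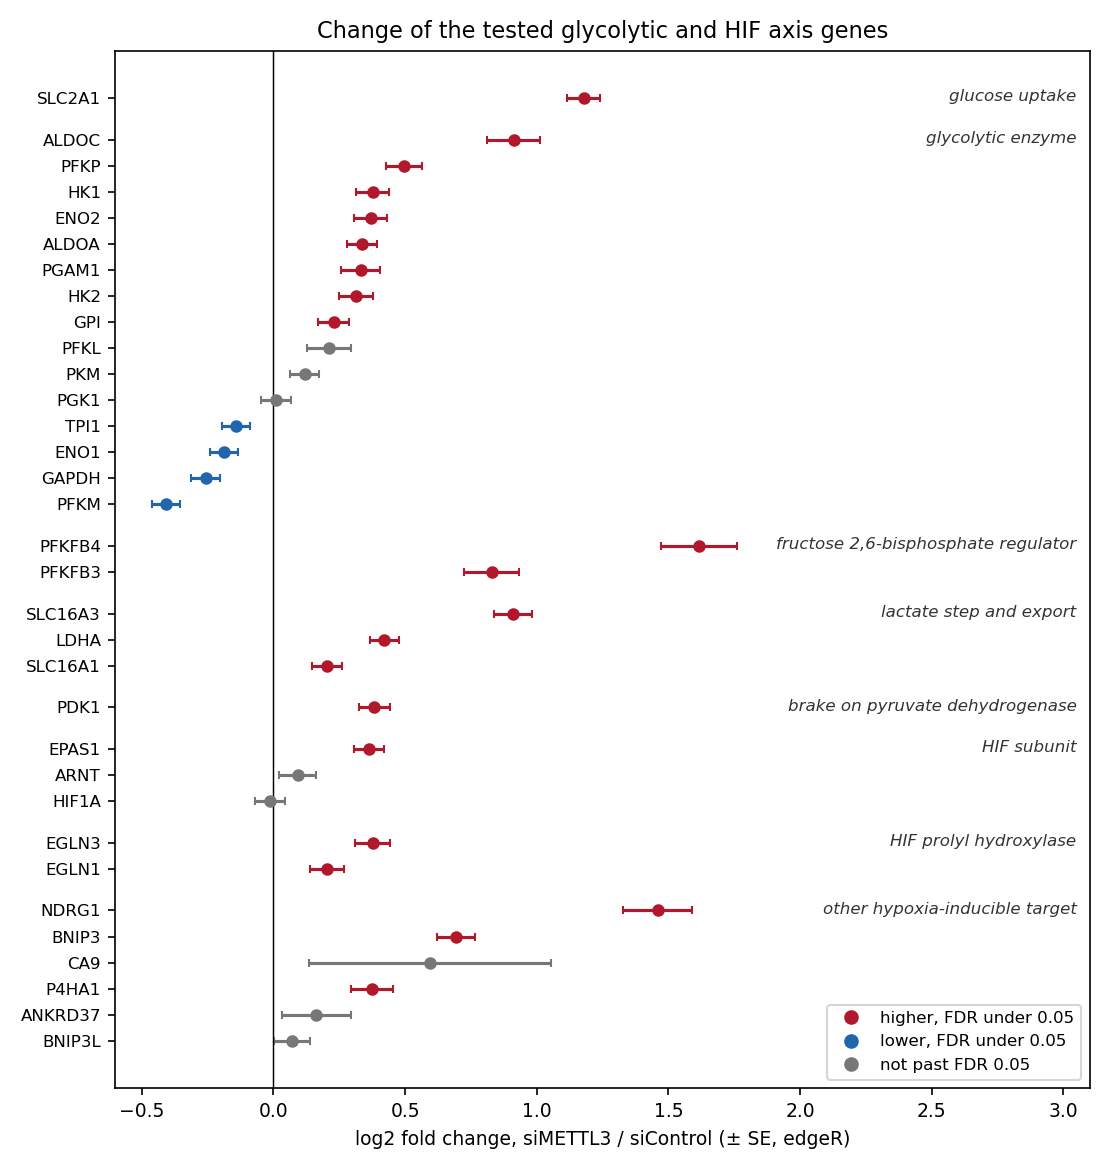
Log2 change of each of the 33 tested genes, siMETTL3 over siControl, with its standard error (horizontal axis), grouped by role and ordered by size (vertical axis). The 21 genes in red were higher and the 4 in blue lower at an FDR under 0.05, and the largest changes are those of PFKFB4 (1.62) and NDRG1 (1.46).

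Glucose enters these cells through facilitative transporters, and SLC2A1, which encodes GLUT1, had one of the larger changes of the list. SLC2A1 (chromosome 1, 42925375 to 42958868, minus strand) was measured at 92.3, 91.5 and 81.2 CPM in siControl and at 200.4, 205.1 and 195.0 CPM in siMETTL3. Every siMETTL3 library was above every siControl library by a wide margin. The rise was 2.26-fold, a log2 change of 1.18 with a standard error (SE) of 0.062 (edgeR FDR 1.94e-08). SLC2A3, which encodes the neuronal transporter GLUT3, was barely detected, with 0, 0 and 1 counts in siControl and 0, 6 and 2 in siMETTL3, and was not tested. A count of 0 allows up to 0.150 CPM in siControl replicate 2, counting error only. SLC2A1 was therefore the transporter of the pair with a measurable level here.

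Of the 15 genes of the enzymes from hexokinase to pyruvate kinase, 8 rose (HK1, HK2, GPI, PFKP, ALDOA, ALDOC, PGAM1 and ENO2), 4 fell (PFKM, TPI1, GAPDH and ENO1), and PFKL, PGK1 and PKM did not pass the test. Hexokinase traps glucose in the cell as glucose-6-phosphate, and both of its genes rose by about as much. HK1 went from 87.9 ± 5.31 to 114 ± 3.51 CPM (mean ± SD, n = 3), a log2 change of 0.38. HK2 went from 135 ± 9.83 to 168 ± 7.38 CPM, a log2 change of 0.31. GPI, whose product turns glucose-6-phosphate into fructose-6-phosphate, rose from 327 ± 18.6 to 384 ± 6.95 CPM, and its edgeR FDR of 0.00691 became 0.0561 without siControl replicate 2.

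Phosphofructokinase, the main control point of the pathway, has platelet (PFKP), muscle (PFKM) and liver (PFKL) subunits, and these moved apart. PFKP rose from 233 ± 21.8 to 329 ± 10.4 CPM (log2 change 0.49, edgeR FDR 8.59e-05). PFKM fell from 154 ± 1.28 to 116 ± 3.06 CPM (log2 change -0.41, edgeR FDR 5.45e-05), the largest fall of the list. PFKL stood at 45.9 ± 2.52 and 53.2 ± 6.00 CPM and missed the threshold (log2 change 0.21, edgeR FDR 0.0617), which it passed without siControl replicate 1 (edgeR FDR 0.0479). With all 6 libraries it also passed with upper-quartile scaling (edgeR FDR 0.0471) and with the replicate number as a block (edgeR FDR 0.0320). The log2 ratio of PFKP to PFKM counts within a library was 0.70, 0.63 and 0.44 in siControl and 1.54, 1.56 and 1.40 in siMETTL3. PFKP thus held a larger share of the pair in all 3 siMETTL3 libraries, and the ratio was 1.88 times as high.

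Aldolase cleaves fructose bisphosphate, and both of its measured genes rose. ALDOA, the abundant form, went from 250 ± 6.88 to 315 ± 15.8 CPM (log2 change 0.34). It shares 99.4% of its span with the readthrough gene AC093512.2, which was counted at nearly the same level. ALDOC, the brain form (chromosome 17, 28573115 to 28576948, minus strand), was measured at 13.4, 14.9 and 12.7 CPM in siControl and at 24.2, 28.1 and 25.3 CPM in siMETTL3. The groups did not overlap, and the rise was 1.88-fold (log2 change 0.91, SE 0.10, edgeR FDR 1.38e-05). The ALDOC span lies wholly inside AC005726.1, which fell (log2 change -0.22), so reads of that gene within the span count for both.

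The most abundant transcript of the list belongs to the next group of enzymes. GAPDH, which oxidises glyceraldehyde-3-phosphate, fell from 2214 ± 68.1 to 1852 ± 31.5 CPM (log2 change -0.26, SE 0.056, edgeR FDR 0.00262). Its values were 2155, 2198 and 2288 CPM in siControl and 1831, 1837 and 1888 CPM in siMETTL3, with no overlap. This transcript is often taken as a reference for other genes, and here it was 16.3% lower. TPI1 (543 ± 9.19 to 492 ± 5.48 CPM, log2 change -0.14) was just past the threshold at an edgeR FDR of 0.0471, and it was not past it under 10 of 19 alternatives. Among these were the leave-outs of siControl replicate 2 and of siMETTL3 replicates 1, 2 and 3 (edgeR FDR 0.140, 0.157, 0.107 and 0.149). ENO1, the main enolase gene, fell from 930 ± 12.7 to 818 ± 12.1 CPM (log2 change -0.19, edgeR FDR 0.0133). Without siMETTL3 replicate 1, 2 or 3 its edgeR FDR was 0.0857, 0.0501 and 0.0555.

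ENO2, the neuronal enolase, rose instead, from 109 ± 6.90 to 141 ± 6.61 CPM (log2 change 0.37, edgeR FDR 0.000473). The ENO2 to ENO1 count ratio was 1.47 times as high in siMETTL3, with no overlap between the groups. PGAM1, a phosphoglycerate mutase, rose from 45.6 ± 2.59 to 57.5 ± 3.68 CPM (log2 change 0.33). PGK1, which makes ATP from bisphosphoglycerate, stood at 341 ± 16.7 and 343 ± 9.36 CPM (log2 change 0.0097, edgeR FDR 0.915). ATP7A, which covers most of the PGK1 span, fell from 58.3 ± 0.957 to 38.7 ± 1.96 CPM (log2 change -0.59). Reads of ATP7A within that span count for PGK1 too, and how many they share was not measured. The change of PGK1 transcripts alone is therefore not known. PKM, which encodes the muscle-type pyruvate kinase, stood at 865 ± 34.2 and 938 ± 7.72 CPM. All 3 siMETTL3 libraries were above all 3 siControl libraries, but PKM was not past the threshold (log2 change 0.12, edgeR FDR 0.111).

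To compare steps with each other, levels were summed over the isoenzyme genes of a step per kb of transcript. The counts include introns and reads of overlapping genes, while the length is that of the spliced transcript. The ranking of levels between genes and steps is uncertain for this reason. The first 4 steps were higher in siMETTL3, by 27.2% for hexokinase, 17.2% for the isomerase, 17.2% for phosphofructokinase and 29.5% for aldolase. Triosephosphate isomerase (-9.35%), GAPDH (-16.3%) and enolase (-8.67%) were lower. Phosphoglycerate mutase (26.0%) and pyruvate kinase (8.54%) were higher, and phosphoglycerate kinase (0.667%, reads shared with ATP7A included) had overlapping groups. The steps with the lowest levels in siControl other than phosphoglycerate kinase were thus higher, and 3 of the 4 steps with the highest levels were lower. Across the 15 enzyme genes, Spearman's rho between the siControl level per kb and the log2 change was -0.55. It was -0.519 over all 33 tested members and -0.261 over 14591 tested genes with a known transcript length. These points share libraries and the siControl values enter both axes, so rho is given as a description.

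**Figure D2:**
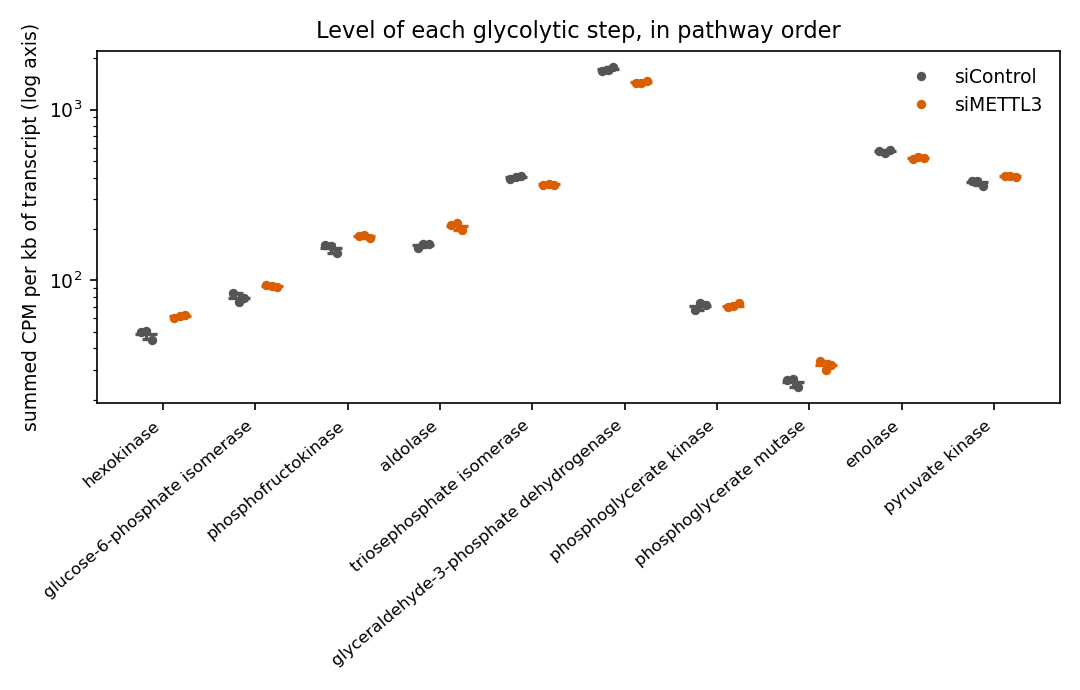
Summed CPM per kb of canonical transcript (vertical log axis) for the 10 steps in pathway order (horizontal axis), with points for the 3 libraries of each group and the mean ± SD. The 3 siMETTL3 points lie above the siControl points in 6 steps and below them in 3, among them GAPDH at the highest level.

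The summed CPM of the 15 enzyme genes differed little, because GAPDH alone made up a large part of it. The sum lay between 6264 and 6313 CPM in siControl and between 6112 and 6183 CPM in siMETTL3. Without GAPDH it lay between 4025 and 4109 CPM in siControl and between 4256 and 4346 CPM in siMETTL3. The direction of the sum therefore turned on whether GAPDH was included, and its share of the sum was at least 34.4% in siControl and at most 30.7% in siMETTL3. Reads that also match the processed pseudogenes of these genes may be missing, since the file headers set no option to count reads with several alignments. The annotation names 65 pseudogenes after GAPDH, 44 after BNIP3 and 13 after PGAM1, and levels between genes are uncertain for this reason too.

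PFKFB3 and PFKFB4 encode bifunctional enzymes that set the level of the allosteric activator of phosphofructokinase, and both rose clearly. PFKFB4 (chromosome 3, 48517684 to 48562015, minus strand) had the largest change of the list. It was measured at 15.4, 21.4 and 12.7 CPM in siControl and at 52.6, 52.1 and 48.5 CPM in siMETTL3. The siControl libraries were widely spread, yet the lowest siMETTL3 value was above the highest of them. The rise was 3.07-fold (log2 change 1.62, SE 0.14, edgeR FDR 1.27e-05). PFKFB3 (chromosome 10, 6144934 to 6254644) was measured at 21.2, 21.9 and 16.2 CPM in siControl and at 34.8, 35.9 and 35.2 CPM in siMETTL3. The siMETTL3 libraries were close together and all above siControl, and the log2 change was 0.83 (SE 0.10, edgeR FDR 3.67e-05). The PFKFB4 to PFKFB3 count ratio was 1.76 times as high in siMETTL3, so the pair did not change in proportion.

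The lactate end of the pathway rose as well. LDHA, which encodes the lactate dehydrogenase subunit that favours lactate formation, rose from 227 ± 9.69 to 304 ± 8.88 CPM (log2 change 0.42). Its promoter window held 5 matches to the HIF core sequence, among them 2 CACGTG that each count as 2 matches. Matches did not follow the calls gene by gene: the window of PGK1, which was not called, held 3, and that of HK1, which rose, 0. The PGK1 count includes reads shared with ATP7A, as given above. SLC16A3 (chromosome 17, 82228397 to 82261129) encodes MCT4, the transporter that exports lactate from glycolytic cells. It was measured at 108.3, 100.1 and 89.6 CPM in siControl and at 185.6, 196.8 and 178.4 CPM in siMETTL3, again without overlap. The rise was 1.88-fold (log2 change 0.91, SE 0.071, edgeR FDR 6.21e-07). Its span shares 67.5% of its bases with CSNK1D, which rose less (log2 change 0.30), and how many reads they share was not measured. SLC16A1, which encodes MCT1, a carrier for both uptake and export, rose from 356 ± 8.97 to 410 ± 16.8 CPM (log2 change 0.20, edgeR FDR 0.0109). Without siMETTL3 replicate 3 its edgeR FDR was 0.0743. The count ratio of SLC16A3 to SLC16A1 was 1.64 times as high in siMETTL3.

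PDK1 encodes a kinase that inhibits pyruvate dehydrogenase and so holds pyruvate back from the mitochondria. It rose from 88.1 ± 3.92 to 115 ± 3.07 CPM (log2 change 0.38, SE 0.059, edgeR FDR 0.000205). The values were 85.8, 92.6 and 85.9 CPM in siControl and 111.7, 115.1 and 117.8 CPM in siMETTL3, so the groups stood well apart.

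Of the HIF subunits, EPAS1 alone passed the test. EPAS1 (chromosome 2, 46293667 to 46386697), the alpha subunit known for its role in sympathoadrenal cells and in erythropoietin control, was measured at 568, 555 and 519 CPM in siControl. In siMETTL3 it was at 696, 707 and 707 CPM, above every siControl library, a log2 change of 0.36 (SE 0.056, edgeR FDR 0.000227). HIF1A (chromosome 14, 61695513 to 61748259), the alpha subunit found in most cells, was measured at 313, 315 and 342 CPM in siControl and at 325, 314 and 322 CPM in siMETTL3. Its groups overlapped, with a log2 change of -0.013 (edgeR FDR 0.878), and its sign turned with total-count scaling (log2 change 0.011), so no direction is given. ARNT (chromosome 1, 150809713 to 150876708), the shared partner, was measured at 68.6, 63.0 and 74.7 CPM in siControl and at 75.8, 71.2 and 72.4 CPM in siMETTL3. It overlapped too (log2 change 0.092, edgeR FDR 0.329). EPAS1 had more counts than HIF1A in every library, and its log2 ratio to HIF1A went from 0.86, 0.82 and 0.60 in siControl to 1.10, 1.17 and 1.13 in siMETTL3.

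**Figure D3:**
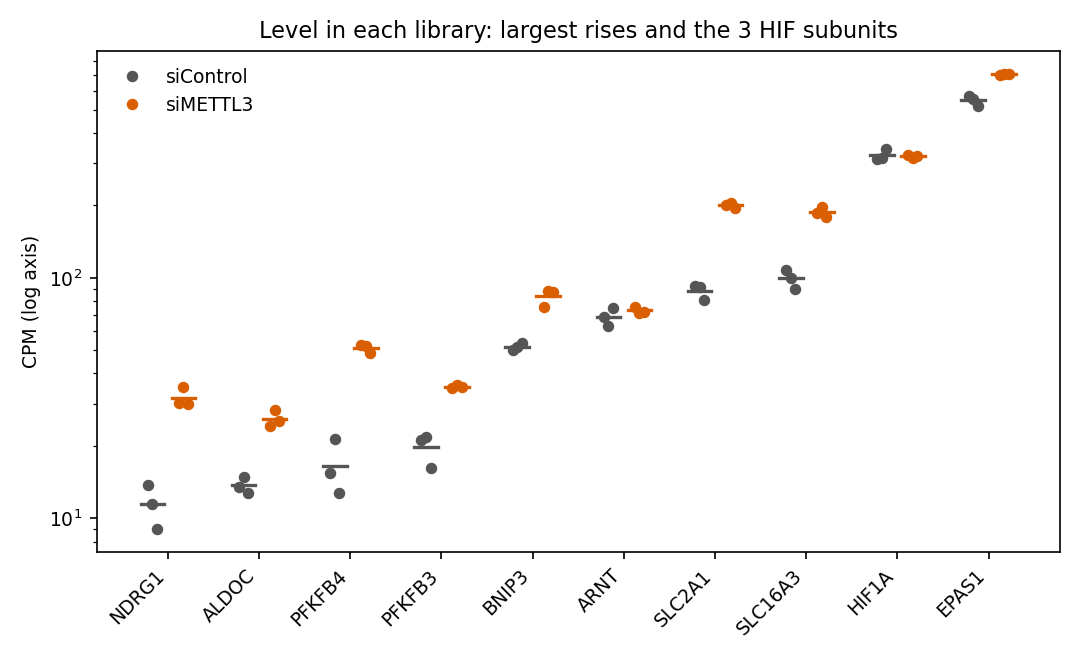
CPM in each library (vertical log axis; points, with the group mean as a line) for the 7 genes that rose by at least 0.5 on the log2 scale and the 3 HIF subunits, ordered by siControl level (horizontal axis). The groups stand apart for all 7 and for EPAS1, and overlap for HIF1A and ARNT.

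EGLN1 and EGLN3, the oxygen-sensing prolyl hydroxylases of the main list and themselves HIF targets, both passed the test. EGLN2, of the same family but not on the main list, is added here. It stood at 81.8 ± 6.51 CPM in siControl and 72.9 ± 2.30 CPM in siMETTL3. All siMETTL3 libraries were below all siControl libraries, but EGLN2 did not pass (log2 change -0.17, edgeR FDR 0.0680). EGLN3 rose from 76.7 ± 6.94 to 99.4 ± 0.966 CPM (log2 change 0.38, edgeR FDR 0.000690). Its span in the tables also includes SPTSSA, which rose too (log2 change 0.34). EGLN1, the main hydroxylase in normal oxygen, rose less, from 73.9 ± 5.02 to 85.2 ± 2.16 CPM (log2 change 0.21, edgeR FDR 0.0221). Its edgeR FDR was 0.0592 without siControl replicate 1, 0.0759 without siMETTL3 replicate 1 and 0.0887 without siMETTL3 replicate 3. Almost all of its span is also counted for AL445524.2.

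Of the remaining hypoxia-inducible genes, NDRG1, BNIP3 and P4HA1 rose, and none fell. NDRG1 (chromosome 8, 133237171 to 133302022, minus strand), a stress-responsive gene that MYCN is known to repress, was measured at 13.8, 11.5 and 9.03 CPM in siControl and at 30.03, 35.1 and 29.995 CPM in siMETTL3. All 3 siMETTL3 libraries were far above siControl, with a 2.75-fold rise (log2 change 1.46, SE 0.13, edgeR FDR 3.20e-06). MYCN, at 2880 to 3147 CPM in siControl, was at 4443 to 4743 CPM in siMETTL3, and its part in the NDRG1 change was not tested. BNIP3 (chromosome 10, 131966455 to 131982013, minus strand), a receptor for the removal of mitochondria, was measured at 50.3, 51.6 and 53.4 CPM in siControl and at 75.5, 88.4 and 87.2 CPM in siMETTL3. Its log2 change was 0.69 (SE 0.072, edgeR FDR 7.78e-06), with no overlap between the groups.

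BNIP3L, its paralog, stood at 50.2 ± 0.496 and 52.7 ± 3.34 CPM and did not pass (log2 change 0.070, edgeR FDR 0.455). With an offset fitted to GC content and length it did (log2 change 0.22, edgeR FDR 0.0111). The BNIP3 to BNIP3L count ratio was 1.54 times as high in siMETTL3, and the groups did not overlap. P4HA1, a collagen prolyl hydroxylase subunit, rose from 39.4 ± 1.27 to 51.1 ± 5.04 CPM (log2 change 0.37). ANKRD37 (8.31 ± 0.996 and 9.32 ± 0.388 CPM, edgeR FDR 0.359) did not pass. CA9, a carbonic anhydrase used as a marker of hypoxic tumour cells, had 7, 22 and 10 counts in siControl and 26, 27 and 13 in siMETTL3. These overlapped (log2 change 0.59 with an SE of 0.46, edgeR FDR 0.335), so a change of this size was not detectable at this depth. ADM, which encodes adrenomedullin, had 2, 6 and 4 counts in siControl and 6, 2 and 0 in siMETTL3, too few to test.

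The size of the changes was mostly modest. Of the 21 genes that rose, 14 had a log2 change under 0.5, and 7 had at least 0.5, where 8.35% of all tested genes did. A log2 change of at least 1 was reached by PFKFB4, NDRG1 and SLC2A1, and by 2.74% of all tested genes. Between the libraries of a group, the median coefficient of variation over the 31 genes with at least 10 CPM in siControl was 5.49% in siControl and 3.08% in siMETTL3. The most variable in siControl were PFKFB4 (26.9%) and NDRG1 (20.8%). Of the 21 genes of the list whose span overlaps no other gene of the tables, 19 were tested, and 13 of these rose and 2 fell. Of the 14 with an overlap, 8 rose and 2 fell.

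Isoenzyme pairs were compared by count ratios within a library, which need no scaling between libraries. Of 10 pairs, 8 had ratios that did not overlap between the groups, each with an exact two-sided permutation p of 0.1, the smallest that 3 against 3 libraries allow, and 0.125 after Benjamini-Hochberg adjustment over the 10 pairs. How often the ratios of other gene pairs separate was not measured, so 8 of 10 has no background here. Of single tested genes, 49.9% had groups that did not overlap. Apart from those already given, the ratio of PFKL to PFKM was 1.54 times as high in siMETTL3 and that of ALDOC to ALDOA 1.496 times as high. HK2 to HK1 changed by -0.063 on the log2 scale and EGLN3 to EGLN1 by 0.17, both with overlapping groups (exact permutation p = 0.3 and 0.2).

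Other genes of the same pathways were counted from 6 lists drawn up in the same way. Among 38 other hypoxia-inducible genes, 37 were tested, and 17 were higher and 4 were lower, against 18.6% and 19.2% of all tested genes, with a median log2 change of 0.25. STC1, which encodes stanniocalcin, rose from 6.79 ± 0.856 to 46.5 ± 0.903 CPM (log2 change 2.77, edgeR FDR 7.74e-10). AK4, a mitochondrial adenylate kinase, rose from 37.01 ± 1.71 to 69.8 ± 1.01 CPM (log2 change 0.91, edgeR FDR 2.78e-07). ZNF395 rose from 58.7 ± 4.14 to 106 ± 4.53 CPM (log2 change 0.84). DDIT4, an inhibitor of mTOR signalling that other stresses also induce, fell from 72.0 ± 5.84 to 41.0 ± 2.41 CPM (log2 change -0.81, edgeR FDR 3.03e-06). EPO, which encodes erythropoietin and was picked out after its values were seen, had 10, 6 and 0 counts in siControl and 71, 80 and 50 in siMETTL3. Its log2 change of 3.48 (edgeR FDR 6.94e-05) rests on these few counts. The genes of this list that fell numbered 6 without siControl replicate 3.

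The oxygen-sensing and HIF control list had 2 of 13 tested genes higher and 1 lower (median log2 change 0.041), where 18.6% of all tested genes were higher and 19.2% lower. EP300, a coactivator of HIF and of other factors, rose from 134 ± 6.23 to 173 ± 5.98 CPM (log2 change 0.37). ELOB, a subunit of the VHL ubiquitin ligase, fell from 71.8 ± 4.53 to 54.1 ± 2.41 CPM (log2 change -0.41). CREBBP, the paralog of EP300, was at 102 ± 12.6 and 119 ± 2.41 CPM (log2 change 0.22, edgeR FDR 0.0355). It was not past the threshold without siControl replicate 2 or 3 or without siMETTL3 replicate 1, 2 or 3 (edgeR FDR 0.107, 0.0606, 0.0905, 0.127 and 0.0901). The count of higher genes was then 1 without siControl replicate 2 and without each siMETTL3 replicate, and the count of lower genes was 2 without siControl replicate 3.

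The pentose phosphate pathway, which branches off at glucose-6-phosphate, had 1 higher and 3 lower genes of 8 tested (median log2 change -0.086). Over all tested genes the shares higher and lower were 18.6% and 19.2%. PGD fell from 180 ± 4.09 to 131 ± 4.63 CPM (log2 change -0.46, edgeR FDR 2.52e-05). TALDO1 fell from 16.5 ± 2.14 to 12.1 ± 0.856 CPM (log2 change -0.45). Without siControl replicate 2, TALDO1 was not past the threshold (edgeR FDR 0.0602), and the list had 1 lower gene. The higher one was the transketolase-like gene TKTL1, which rose from 3.48 ± 0.651 to 24.3 ± 1.54 CPM (log2 change 2.79).

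Pyruvate entry into mitochondria had 0 higher and 3 lower genes of 13 tested in edgeR's test, where 18.6% of all tested genes were higher and 19.2% lower. The lower ones were PDP2, PDHB and DLD (log2 changes -0.28, -0.24 and -0.24). With DESeq2 and with limma-voom the counts were also 0 higher and 3 lower. At an unadjusted edgeR p under 0.05 they were 0 higher and 5 lower, and the share of all genes at that threshold was not measured. The lower genes numbered 1 without siControl replicate 2 and without siMETTL3 replicate 2 or 3. DLD was also not past the threshold without siControl replicate 3 or siMETTL3 replicate 1 (edgeR FDR 0.0766 and 0.0905). PDK1 of the main list, which acts on the same enzyme complex, had risen. The citric acid cycle had 3 higher and 3 lower of 17 tested genes, near the 18.6% and 19.2% of all tested genes, and the list median log2 change was -0.067. IDH2 fell from 86.2 ± 3.44 to 67.7 ± 6.19 CPM (log2 change -0.35) and FH from 60.9 ± 4.19 to 49.8 ± 4.22 CPM (log2 change -0.29). OGDH and SDHD rose (log2 changes 0.30 and 0.28). Without siMETTL3 replicate 1 the higher genes numbered 0 and the lower ones 1, FH, OGDH and SDHD being among those lost (edgeR FDR 0.0710, 0.0551 and 0.0938). The higher genes numbered 1 without siMETTL3 replicate 2 or 3, with OGDH (edgeR FDR 0.0652) lost in the first case and SDHD (edgeR FDR 0.0506) in the second, and the lower ones 5 without siControl replicate 3.

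The other glycolytic isoenzymes, transporters and regulators had 2 higher and 5 lower of 19 tested (median log2 change -0.099), and the 7 called genes were near the 37.8% of all tested genes. SLC16A7, which encodes the monocarboxylate transporter MCT2, fell from 93.5 ± 12.0 to 49.2 ± 1.82 CPM (log2 change -0.92, edgeR FDR 3.03e-06), while SLC16A1 and SLC16A3 rose. PCK2, which acts in the direction of gluconeogenesis in mitochondria, fell from 46.9 ± 4.43 to 28.8 ± 2.04 CPM (log2 change -0.70). PFKFB2, another gene of the PFKFB family, fell from 71.7 ± 6.82 to 56.8 ± 4.75 CPM (log2 change -0.33), opposite to PFKFB3 and PFKFB4. BPGM fell as well (log2 change -0.39). The count of higher genes was 0 without siMETTL3 replicate 1 or 2 and 1 without siControl replicate 1 or 2 or siMETTL3 replicate 3. The plot of all lists shows that the main list and the other hypoxia-inducible genes were the 2 with medians well above 0.

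**Figure D4:**
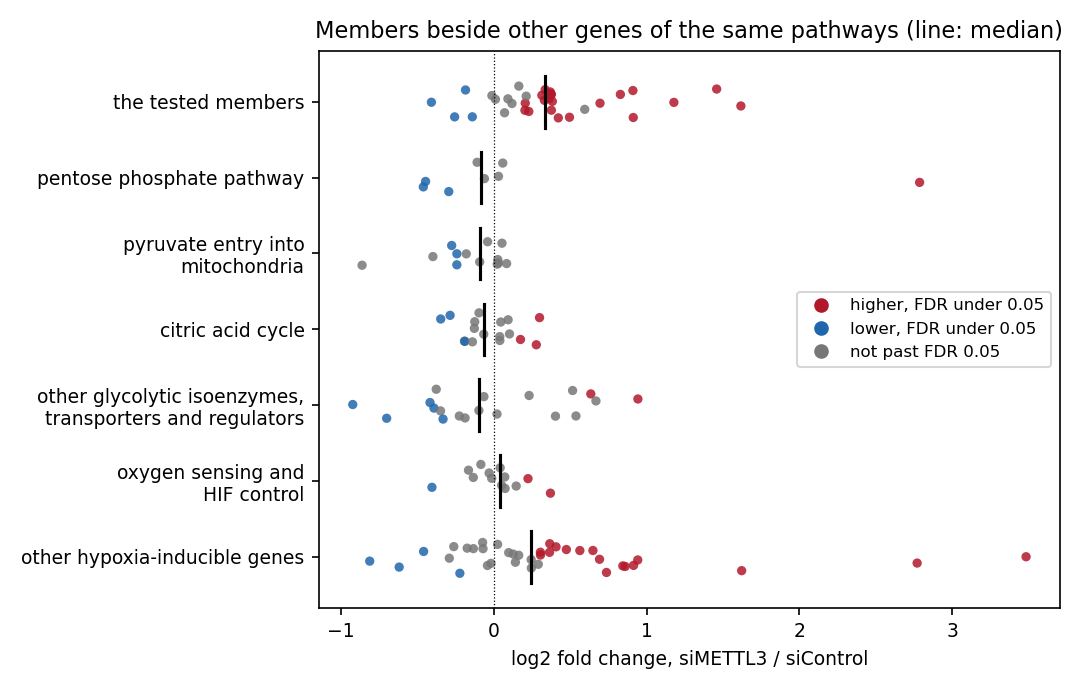
Log2 change, siMETTL3 over siControl (horizontal axis), of each tested gene of the main list and of 6 lists of related genes (vertical axis; vertical position within a row is arbitrary), with the median as a line. Medians are 0.34 for the main list and 0.25 for the other hypoxia-inducible genes, and between -0.099 and 0.041 for the rest.

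The changes were followed over 19 alternative fits. For 24 of the 33 genes neither the direction nor the call changed in any of them, and these include all 7 genes with a log2 change of at least 0.5. The higher genes numbered 19 without siMETTL3 replicate 3 and at most 22, and that of lower genes was 2 without siMETTL3 replicate 1, 2 or 3. Leaving out siControl replicate 3, the library that stands apart, gave 21 higher and 4 lower genes. The plot of the ranges gives each gene's values.

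**Figure D5:**
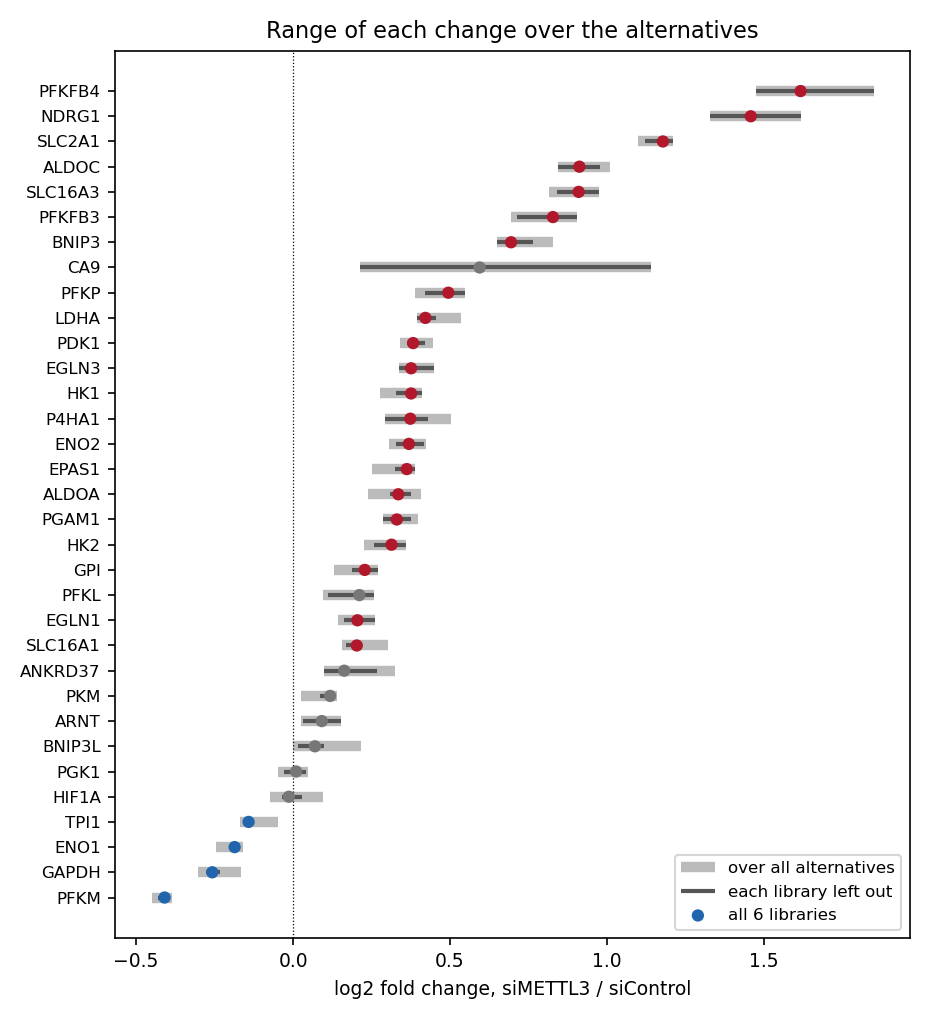
Log2 change with all 6 libraries (points, red for higher, blue for lower and grey for not past the threshold), its range over the fits that left out a library (dark bars) and over all alternatives (light bars), on the horizontal axis, for each tested gene (vertical axis). PFKFB4 ranges from 1.48 to 1.85 and GAPDH from -0.30 to -0.16, while PGK1 and HIF1A cross 0.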

How the data were processed

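RNA-seq of poly(A) RNA was compared between 3 siControl and 3 siMETTL3 libraries. The authors deposited raw counts per gene, made per the file headers with featureCounts 1.5.3 on a protein-coding subset of GENCODE release 33, counting whole gene spans, introns included. Per the file headers, reads over several genes were counted for each, without a strand or fragment option. Trimmomatic 0.36, HISAT2 2.1.0 and GRCh38 are named in the submitters' processing notes. Of 18981 symbols compared, 18980 overlapped the same symbol in GENCODE release 44.

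Counts were filtered with filterByExpr (15311 genes kept), scaled by TMM and tested with edgeR 4.0.16 (quasi-likelihood F-test, robust, no covariate, R 4.3.3), with Benjamini-Hochberg adjustment over all tested genes and a threshold of 0.05. CPM are relative to TMM-scaled library sizes. SEs were derived from the fold change and its F statistic. CPM per kb uses the canonical transcript. Precision is limited by 3 libraries per group and by the 15430000 to 21565013 counts per library. Within groups, libraries differed by more than sampling noise (chi-square per degree of freedom 3.05 to 16.1). On simulated data (10 draws, 200 changed genes), 88.6% of 2-fold and 76.9% of 1.5-fold changes were called, and 8.77% of calls were false. In the real data 37.8% of tested genes were called, a far larger share than was changed there, so these rates may not carry over.

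Members, lists and tests were chosen with earlier results of these data known. METTL3 and every member with a row are named, with every library printed for changes of at least 0.5 (log2) and for the HIF subunits. Up to 4 genes per list with the smallest p-values are named, and some that the text adds are marked. For 1 gene of the pentose phosphate list, values are not reported here. Alternatives were other scalings, filters and tools (DESeq2 1.42.0, limma-voom 3.58.1), a replicate block, offsets for GC content and transcript length, genes without overlaps, and each library left out. The fit on genes without overlaps kept every member and METTL3 with all their reads, so it did not remove their own overlaps. The intron length offset was chosen after seeing the data.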

Additional observations from a re-analysis of the deposited data

How the results depend on the processing

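The METTL3 level was lower and past the threshold in all 19 alternatives, with a log2 fold change from -0.74 to -0.69 over the fits that each left out a library. Over those fits the genes called ranged from 2091 to 3178 (higher) and from 2119 to 3216 (lower), and the members from 19 to 21 (higher) and from 2 to 4 (lower). Tested on genes without overlaps, to which the members and METTL3 were added whatever their overlap, 1860 genes were higher and 1900 lower. Only 9532 genes were tested there. Total-count scaling moved the median log2 fold change of all genes to 0.021 and gave 53.9% higher among the called genes, against 49.2% with TMM.

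PGK1, which was not past the threshold (0.0097), ranged from -0.029 to 0.041 with a library left out. It changed sign with the intron length offset (-0.047), without siControl replicate 1 (-0.029) and without siMETTL3 replicate 3 (-0.012). It also changed sign in the fit on genes without overlaps (-0.0083), in which PGK1 kept the reads of its own overlaps. HIF1A, also not past the threshold, ranged from -0.036 to 0.028 with a library left out. It changed sign with total counts (0.011), with the GC and length offset without (0.095) and with (0.095) the replicate block, and without siControl replicate 3 (0.028). The cause was not tested. Of 428 values of single members in fits with all libraries, 7 lost their call and 4 gained one. In the 198 values with a library left out, 12 lost their call and 1 gained one.

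Counts of called genes in the short lists moved by more than 1.5 times as follows. With the GC and length offset, the pentose phosphate list had 2 higher, the citric acid cycle 5 lower, the other glycolytic list 1 higher and the HIF control list 3 lower. With that offset and the replicate block, the same counts were 2 higher for the pentose phosphate list, 1 higher and 8 lower for the other glycolytic list, and 4 higher and 3 lower for the HIF control list. On genes without overlaps, where fewer genes were tested, the pentose phosphate list had 0 higher, the citric acid cycle 1 higher, the other glycolytic list 2 lower, and the HIF control list 1 higher and 0 lower. With the intron length offset the other glycolytic list and the HIF control list each had 1 higher. With a library left out, the ranges were 1 to 4 lower (pentose phosphate), 1 to 4 lower (pyruvate entry), 0 to 3 higher and 1 to 5 lower (citric acid cycle), 0 to 2 higher (other glycolytic), and 1 to 2 higher and 1 to 2 lower (HIF control). For the other hypoxia-inducible genes they were 14 to 20 higher and 3 to 6 lower.

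Whether the shared replicate numbers pair the libraries is not known. Deviations from the group means correlated at 0.040, 0.049 and 0.067 for the same number and between -0.064 and 0.026 otherwise. Each library thus correlated best with its own number, but weakly, and a weak pairing is not excluded. When that number entered as a replicate block, 3047 genes were higher and 3119 lower. Among the members, PFKL passed (log2 fold change 0.21, edgeR FDR 0.0320) and TPI1 no longer did (-0.14, edgeR FDR 0.0592).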
